A study of Homo sapiens with 9 samples.

Results

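The comparison described here sets 3 poly(A) RNA libraries from cells given siRNA against UXS1 beside 3 from cells given siRNA against MRPL42, 6 of the 9 libraries of the study. The cells are HCCLM3, an established human hepatocellular carcinoma line, and the study's other group of 3 libraries received a non-targeting siRNA. The libraries were chosen by their column names alone, and control libraries stood on neither side. The labels give no duplex sequence, dose or hours of transfection, and no word on whether a group's libraries came from separate cultures. P-values therefore measure a spread between libraries that may be technical. Libraries are named by siRNA and by the letter (a, b or c) of their column. MRPL42 siRNA libraries a and b differed most from each other, and list medians that turn sign or move by over 1.5 times without b are also given without it. The 6 libraries held between 15265959 and 22400560 estimated counts, and 12455 of 20379 listed genes had counts high enough to be tested. Levels are in CPM, the usual depth-scaled unit of RNA sequencing, computed on the TMM-adjusted library total, and log2 fold changes are UXS1 siRNA minus MRPL42 siRNA.

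The siRNAs were aimed at proteins of separate pathways. UXS1 is the Golgi enzyme that turns UDP-glucuronate into UDP-xylose, the sugar with which the chains of heparan and chondroitin sulfate proteoglycans are started. MRPL42 is a protein of the mitochondrial ribosome, which translates the few mRNAs that mitochondria encode, all of them for subunits of the respiratory chain and the ATP synthase. An siRNA acts by guiding cleavage of the mRNA it matches, so each target mRNA was examined first.

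MRPL42 mRNA (ENSG00000198015, chromosome 12, 93467488 to 93516213, plus strand, GRCh38) stood at 131, 115 and 126 CPM in UXS1 siRNA libraries a, b and c, while those of MRPL42 siRNA held 105, 93 and 82.1 CPM. The groups did not overlap. The means were 124 ± 8.17 and 93.4 ± 11.6 CPM (SD, n = 3 each), a log2 fold change of 0.40 (SE 0.09, 95% confidence interval 0.20 to 0.61). edgeR's quasi-likelihood test gave an unadjusted p of 0.00178, rank 4 among all tested genes, and a Benjamini-Hochberg adjusted p of 0.912. The exact two-sided permutation test of CPM gave p = 0.1, the smallest that 3 libraries against 3 allow. Scaled together with the 3 control siRNA libraries, MRPL42 stood at 115 to 131 CPM in UXS1 siRNA, 81.8 to 104 CPM in MRPL42 siRNA and 100 to 146 CPM in control siRNA, so the control range overlapped both. Control libraries a, b and c had 100, 118 and 146 CPM, and c stood apart for genes described below. The log2 fold change was 0.42 without MRPL42 siRNA library b and 0.39 with a correction for transcript length. Of the 2210 genes with a mean of at least 100 CPM, MRPL42 was the 1 gene with an estimate beyond 1.25-fold, a count made after its values had been seen.

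UXS1 mRNA (chromosome 2, 106093303 to 106194339, minus strand) stood at 144, 138 and 140 CPM in UXS1 siRNA and at 142, 156 and 147 CPM in MRPL42 siRNA. Library a of each group put the ranges in overlap. The means were 141 ± 3.15 and 148 ± 7.19 CPM (SD, n = 3 each), with a log2 fold change of -0.08 (SE 0.05, 95% confidence interval -0.20 to 0.05). The unadjusted p in edgeR was 0.200, the adjusted p 0.912 and the exact permutation p 0.2. The interval reaches down to -0.20, so a larger lowering of UXS1 mRNA beside the MRPL42 siRNA cells lies outside it. Scaled with the controls, UXS1 stood at 138 to 145 CPM in UXS1 siRNA, 140 to 156 CPM in MRPL42 siRNA and 144 to 179 CPM in control siRNA. The 179 CPM came from control library c alone. Control libraries a and b, at 144 and 151 CPM, lay within the MRPL42 siRNA range.

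**Figure D1:**
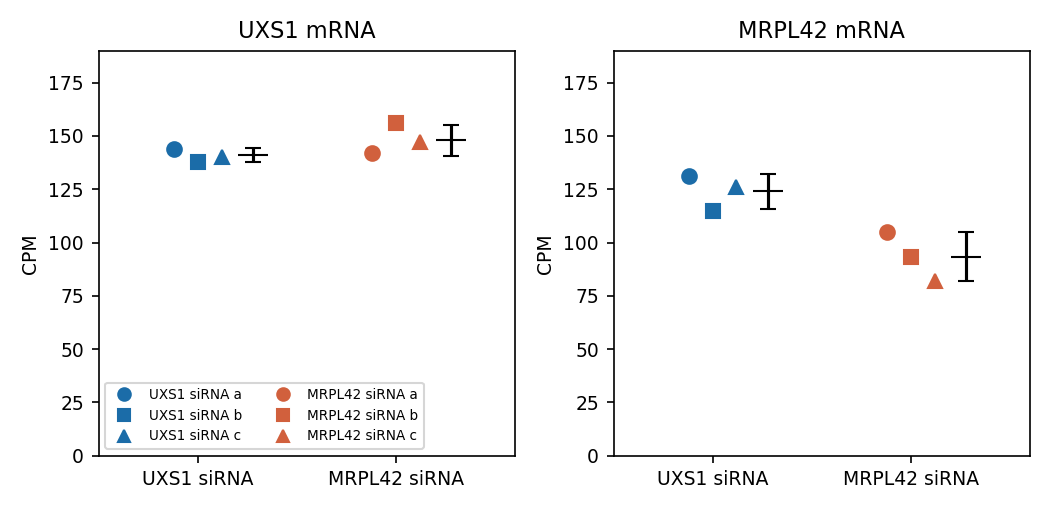
UXS1 mRNA (left) and MRPL42 mRNA (right) in CPM on the vertical axis, by siRNA group on the horizontal axis. Symbols are single libraries and the black bars the mean ± SD (n = 3). The MRPL42 levels of the groups are apart, with 115 CPM the lowest in UXS1 siRNA and 105 CPM the highest in MRPL42 siRNA, and the UXS1 levels overlap.

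Across all genes no difference between the siRNAs passed the threshold. edgeR called 0 of 12455 genes at an adjusted p below 0.05 (0.00%), with a smallest adjusted p of 0.912. Of all estimates 44.4% were above 0 and 55.6% below. At an unadjusted p below 0.05 there were 579 genes (4.65%), 361 with a higher estimate in UXS1 siRNA (2.90%) and 218 with a lower one (1.75%). DESeq2 and limma-voom also called 0 genes, with 282 and 562 at an unadjusted p below 0.05. All 3 libraries of one group lay above all 3 of the other for 1292 genes (10.4%), 615 of them higher in UXS1 siRNA (4.94%) and 677 lower (5.44%). These shares are the background against which the counts below are read. Differences were small at the levels where the libraries give precision. The median absolute log2 fold change was 0.05 for genes from 100 CPM, 0.07 at 10 to 100 CPM, 0.12 at 1 to 10 CPM and 0.26 under 1 CPM. Over all tested genes it was 0.07. From the 5th to the 95th percentile of all tested genes the estimates ran from -0.19 to 0.22.

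The intervals show which differences these libraries leave possible. For 10823 genes (86.9%) the 95% confidence interval of the single gene lay wholly within 1.5-fold in either direction, and for 12059 (96.8%) within 2-fold. Among the 7285 genes at 10 to 100 CPM, 7118 intervals (97.7%) lay within 1.5-fold and 5472 (75.1%) within 1.25-fold. Among the 438 genes under 1 CPM none lay within 1.5-fold and 193 (44.1%) lay within 2-fold, so for most weakly expressed genes the intervals do not exclude a 2-fold difference. Counts were simulated for this comparison with 200 changed genes among 12455. The share called was 77.6% at a 1.5-fold change, 94.0% at 2-fold and 100% at 4-fold, beside 12 false calls. Each simulated gene varied independently, so shifts shared by many genes of a library were left out. With 200 changed genes the adjusted threshold is also easier to pass than with few. These shares therefore need not hold for the measured libraries.

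**Figure D2:**
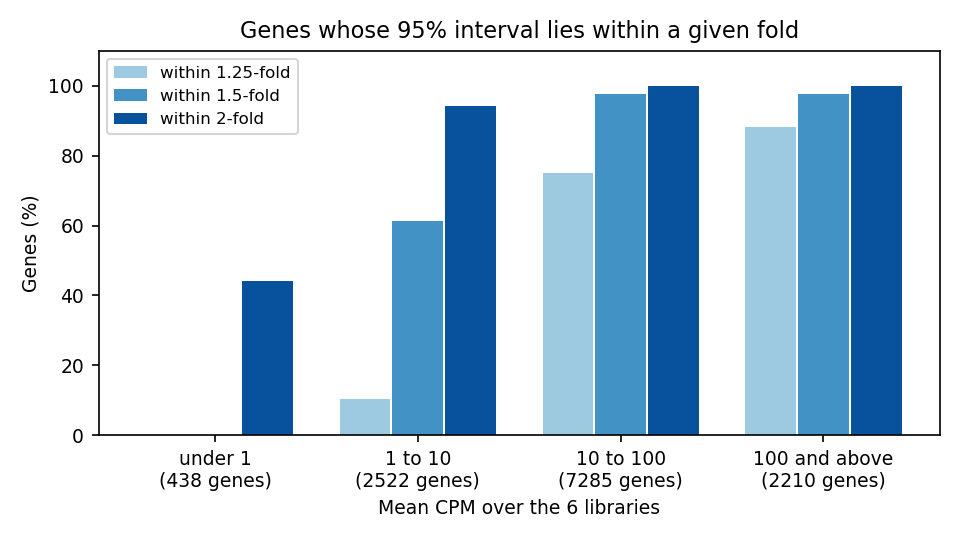
Percentage of genes (vertical axis) whose 95% confidence interval of the fold change lay wholly within 1.25-fold, 1.5-fold or 2-fold in either direction, in 4 classes of mean CPM (horizontal axis). Within 1.5-fold the share was 61.3% at 1 to 10 CPM and 97.7% at 10 to 100 CPM.

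The libraries did not sort fully by siRNA. Pearson's r of log2 CPM, taken across genes and so not across independent replicates, lay between 0.991 and 0.995 for the 9 pairs that cross the groups, between 0.993 and 0.995 within UXS1 siRNA and between 0.988 and 0.993 within MRPL42 siRNA. UXS1 siRNA library b was as close to MRPL42 siRNA libraries a and c (both 0.995) as to its own group. Of the summed variation of log2 CPM, 18.6% lay between the siRNAs, which hold 1 of the 5 degrees of freedom. UXS1 siRNA libraries a, b and c lay at 13, -0.396 and 8.48 on the second principal component (23.3% of the variance). The MRPL42 siRNA libraries stood there at 2.33, -8.24 and -15.2, so only UXS1 siRNA b and MRPL42 siRNA a crossed. On the first component (37.9% of the variance), MRPL42 siRNA libraries a and b lay at opposite ends. They also differed in short mRNAs: the 722 tested genes with a transcript under 1000 bases stood at a mean relative log2 CPM (each gene's mean of both groups set to 0) of 0.25 in library a and -0.29 in library b, against 0.00, 0.08 and -0.11 in UXS1 siRNA and 0.08 in MRPL42 siRNA library c. The part of this spread in the results was not tested beyond fits without library b and fits corrected for transcript length.

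**Figure D3:**
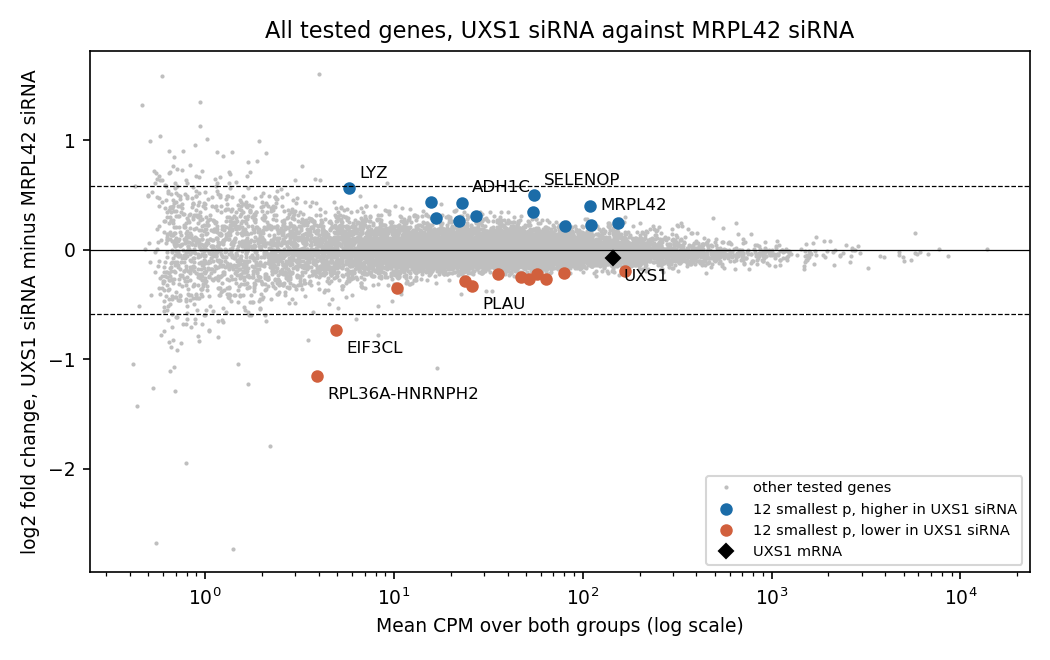
log2 fold change, UXS1 siRNA minus MRPL42 siRNA (vertical axis), against mean CPM over both groups (horizontal axis, log scale) for all 12455 tested genes. Dashed lines mark 1.5-fold. Coloured points are the 12 genes per direction with the smallest p that met the naming rule, and MRPL42 is the 1 gene above 100 CPM beyond 1.25-fold.

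Of the 12 genes with the smallest p among those higher in every UXS1 siRNA library, 11 are described here, MRPL42 among them. They had log2 fold changes of 0.22 to 0.56 and unadjusted p-values of 0.00146 to 0.00398, with an adjusted p of 0.912 for each in edgeR. ADH1C, FGA and FGG are also on the hepatocyte list described further down. ADH1C, an alcohol dehydrogenase of hepatocytes, stood at 26.2, 25.7 and 26.7 CPM in UXS1 siRNA and at 20.7, 16.6 and 20.8 CPM in MRPL42 siRNA (0.43, SE 0.09). SELENOP, the plasma protein that carries selenium from the liver, stood at 64.9, 61.4 and 66.6 CPM against 55.6, 41.7 and 39.5 CPM (0.50, SE 0.12). The ranges of both genes were apart, with MRPL42 siRNA library a nearest to UXS1 siRNA for SELENOP and library b farthest for ADH1C. FGA and FGG, neighbours on chromosome 4 that encode the alpha and gamma chains of fibrinogen, were also apart. FGA had means of 86.9 against 74.5 CPM (0.22, SE 0.05), and FGG stood at 17.3, 16.9 and 19.8 CPM against 15.2, 11.5 and 13.1 CPM (0.44, SE 0.11). BAAT, which conjugates bile acids to glycine and taurine, had 166 ± 8.32 against 140 ± 6.42 CPM (0.24; SD, n = 3 each). TMT1A, a thiol methyltransferase, was at 0.31, and lysozyme (LYZ), found in myeloid and some epithelial cells, at 0.56 with means of 6.84 and 4.66 CPM. The others were TMEM64 (0.23), LIN7A (0.34), a scaffold protein of cell junctions, and RNF170 (0.29), a ubiquitin ligase of the endoplasmic reticulum.

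The control siRNA libraries a and b, scaled together with the other libraries, lay between the siRNA groups or within the MRPL42 siRNA range for several of these genes. For TMT1A they stood at 26.7 and 26.9 CPM, with 29.2 to 31.9 CPM in UXS1 siRNA and 23.2 to 24.9 CPM in MRPL42 siRNA. SELENOP stood at 44.6 and 49.3 CPM, inside the MRPL42 siRNA range of 39.3 to 55.2 CPM and below the 61.5 to 66.9 CPM of UXS1 siRNA. FGG went the other way, at 16.8 and 19.0 CPM, with 16.9 to 19.9 CPM in UXS1 siRNA and a lowest value of 11.5 CPM in MRPL42 siRNA. Control library c stood apart, at 8.24 CPM for FGA, where a and b had 74.8 and 82.8 CPM, and at 23.4 CPM for SELENOP. ADH1C and FGG had no count in it.

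The 12 genes with the smallest p among those lower in every UXS1 siRNA library had log2 fold changes of -1.15 to -0.19 and unadjusted p-values of 0.000827 to 0.00785, again with an adjusted p of 0.912 each. PLAU, the secreted protease urokinase, had the smallest p of all genes. It stood at 23.1, 23.1 and 23.2 CPM in UXS1 siRNA and at 28.6, 28.1 and 30.2 CPM in MRPL42 siRNA (-0.33, SE 0.07). ITGB4 and COL17A1, which encode integrin beta 4 and collagen XVII of the hemidesmosome, the anchor of epithelia to the basement membrane, had means of 157 and 21.5 CPM against 179 and 26.2 CPM (-0.19 and -0.29). The epithelial keratin KRT80 was at -0.21, the secreted gel-forming mucin MUC5AC at -0.22 and FOSL1, an AP-1 subunit, at -0.27. Further members were ATG16L1 (-0.22), which acts in autophagosome formation, PEAR1 (-0.25), a membrane receptor, FAM219A (-0.27) and ADPRHL1 (-0.35). Among the 12, the largest estimates belonged to genes whose reads are shared with others: EIF3CL (-0.73), a near-identical copy of EIF3C, and RPL36A-HNRNPH2 (-1.15), a readthrough gene that overlaps both genes it is named for, are uncertain. Control siRNA libraries a, b and c stood at 31.2, 29.5 and 34.1 CPM for PLAU, with 28.1 to 30.1 CPM in MRPL42 siRNA and 23.2 to 23.3 CPM in UXS1 siRNA on the same scale. For ITGB4 all 3 controls (222, 203 and 480 CPM in a, b and c) were above both siRNA groups. KRT80 differed from that, with 67.6, 66.2 and 55.4 CPM in control libraries a, b and c. These were below the 72.5 to 75.6 CPM of UXS1 siRNA and the 84.1 to 86.6 CPM of MRPL42 siRNA.

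**Figure D4:**
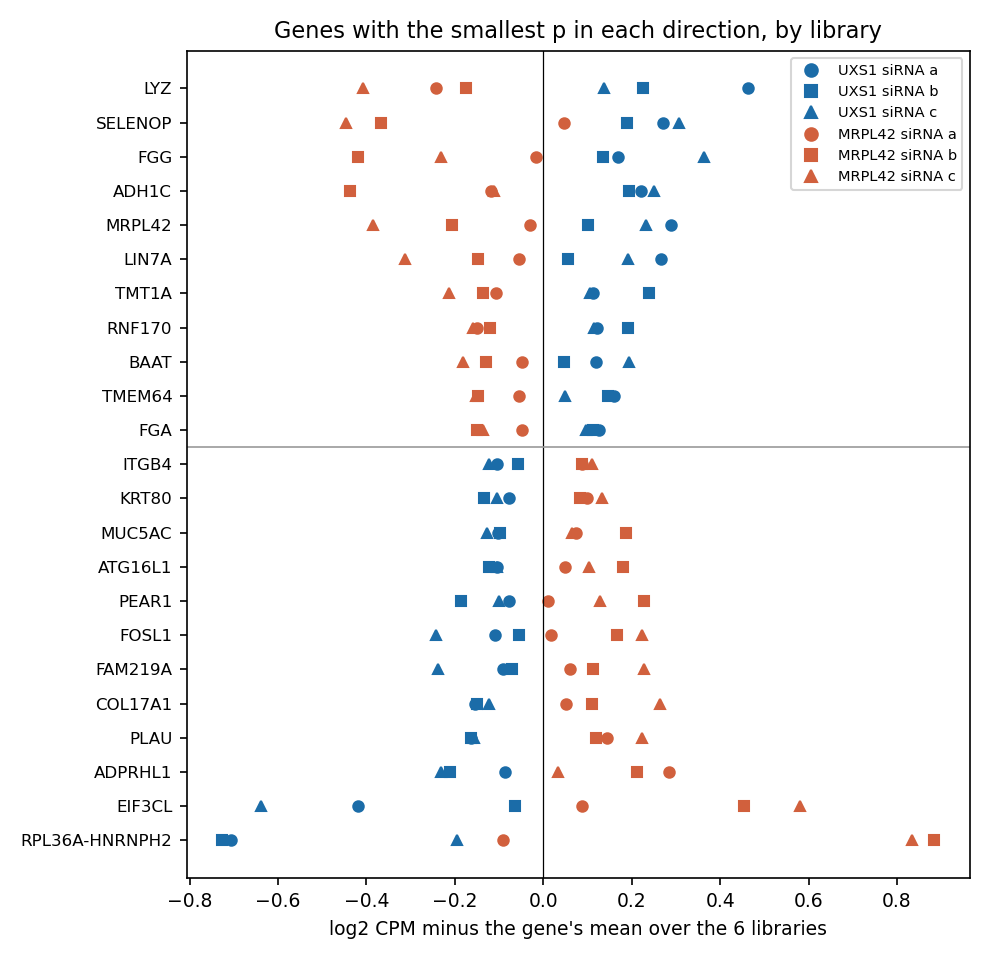
log2 CPM of each library relative to the gene's mean over the 6 libraries (horizontal axis) for the genes with the smallest p in each direction (vertical axis), 11 higher and 12 lower in UXS1 siRNA. In every row the 3 UXS1 siRNA libraries lie on one side of the 3 MRPL42 siRNA libraries, which the naming rule required.

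Gene lists give the wider picture. In all 32 lists, with 859 distinct tested genes, no member passed the adjusted threshold. List medians ran from -0.12 to 0.17, where the median of all tested genes was -0.01. A list's level in a library is the mean relative log2 CPM of its tested members. For 5 of the 32 lists these levels did not overlap between the groups, 1 with UXS1 siRNA higher and 4 lower. Among single genes the share apart was 10.4%. Whether 5 lists are more than such a share would give was not tested. Members named beyond the 2 with the smallest p in a list were chosen after their values were seen.

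Genes that work with MRPL42 showed no difference past the threshold. Of the other 51 proteins of the large mitochondrial ribosomal subunit 15 were above 0 and 36 below, where 55.6% of all genes were below. The median was -0.04 with a range of -0.17 to 0.19, and for no gene were the libraries apart (10.4% over all genes). MRPL1 was at 0.19 and MRPL19 at 0.13, with unadjusted edgeR p-values of 0.0805 and 0.0989. The small subunit had a median of -0.02 over 30 genes, with MRPS18C at 0.22 (unadjusted p = 0.0234). Translation factors and ribosome assembly genes of mitochondria had a median of -0.01 over 31 genes (-0.04 without MRPL42 siRNA library b), with GTPBP10, a GTPase of mitochondrial ribosome assembly, at 0.20. The 17 mitochondrial aminoacyl-tRNA synthetases had a median of 0.02. The 13 mRNAs that mitochondria encode, the products of which this ribosome makes, had a median of -0.04. Of these 12 were below 0, where 55.6% of all genes were, and no gene was apart (10.4% over all genes). Their level overlapped, at -0.18, 0.07 and -0.01 in UXS1 siRNA and -0.08, 0.07 and 0.13 in MRPL42 siRNA. MT-ATP8, a subunit of the ATP synthase, stood at 22.9, 33.6 and 29.6 CPM in UXS1 siRNA and at 30.1, 44.3 and 37.7 CPM in MRPL42 siRNA (-0.38, SE 0.16), an overlap. Its reading frame overlaps that of MT-ATP6, so its reads are uncertain.

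Respiratory chain genes of the nucleus varied more within the MRPL42 siRNA group than between the siRNAs. Complex I genes had a median of -0.08 (5 of 37 above 0, where 44.4% of all genes were). Their level was -0.02, 0.09 and -0.13 in UXS1 siRNA. In MRPL42 siRNA it was 0.27 in library a, -0.34 in b and 0.12 in c. Complexes II to V had a median of -0.06 over 39 genes. Cytosolic ribosomal proteins had a median of -0.07, with 73 of 79 below 0 (55.6% over all genes) and no gene apart (10.4% over all genes). Their level ran from -0.41 in MRPL42 siRNA library b to 0.35 in library a, with UXS1 siRNA at 0.01, 0.08 and -0.14 between them. Without library b the median was -0.23 for complex I genes, -0.18 for the genes of complexes II to V, -0.25 for cytosolic ribosomal proteins and -0.13 for the large mitochondrial subunit. With the transcript length correction these medians were -0.03, -0.02, -0.01 and 0.01. Over the 16 alternatives described at the end, their highest values were 0.04, 0.04, 0.11 and 0.07 in the same order. The sign of each of these medians thus depended on the setting and on which libraries were kept. NDUFA5, a complex I subunit, went against its list at 0.35 (unadjusted p = 0.0103), with 66.3, 52.5 and 56.3 CPM in UXS1 siRNA and 50.7, 46.3 and 40.3 CPM in MRPL42 siRNA. Mitochondrial chaperones and proteases had a median of -0.03 (-0.06 without library b), with ATF5, a transcription factor of the mitochondrial stress response, at -0.14.

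Genes that work beside UXS1 had estimates on both sides of 0. The 23 tested genes (27 listed) for making UDP-glucuronate and UDP-xylose and for starting glycosaminoglycan chains had a median of 0.00, with 11 above and 12 below 0, and of 0.02 without MRPL42 siRNA library b. UGDH, which makes the UDP-glucuronate that UXS1 consumes, stood at 840, 778 and 829 CPM in UXS1 siRNA and at 735, 783 and 704 CPM in MRPL42 siRNA (0.14, SE 0.06, unadjusted p = 0.0466), and library b put the ranges in overlap. XYLT2, the xylosyltransferase that places the first xylose, was at -0.05 and B4GALT7, which adds the next sugar, at -0.03. Enzymes that build and sulfate the chains had a median of -0.03 over 32 genes, which was 0.02 without library b. HS3ST3B1, a heparan sulfate 3-O-sulfotransferase, had the largest difference among them at a low level, 2.15 ± 0.253 against 1.24 ± 0.245 CPM (SD, n = 3 each), with no overlap (0.80, SE 0.22, unadjusted p = 0.00518).

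The core proteins that carry these chains stood lower in UXS1 siRNA by their median, -0.12 over 19 tested genes of 30 listed (-0.08 without MRPL42 siRNA library b), with 16 below 0 where 55.6% of all genes were. Their level was -0.01, 0.00 and -0.12 in UXS1 siRNA and 0.01, 0.01 and 0.11 in MRPL42 siRNA, so the nearest libraries of the groups almost touched. SDC3, SDC4 and VCAN had libraries apart with UXS1 siRNA lower (15.8% of the list, where the background was 5.44%), while GPC1 and AGRN overlapped. At an unadjusted p below 0.05 in edgeR were GPC1 (-0.18), a glypican, SDC4 (-0.13), a syndecan, agrin (AGRN, -0.16) and versican (VCAN, -0.15). SDC4 stood at 74.4, 77.3 and 71.8 CPM against 84.2, 79.5 and 81.3 CPM. UDP-glucuronosyltransferases, which also consume UDP-glucuronate and attach glucuronate to drugs and bilirubin, had the highest median of the lists, 0.17 over 13 tested genes. Of the 13, 11 were above 0, where 44.4% of all genes were. Libraries were apart with UXS1 siRNA higher for 2 of the 13, where the background was 4.94%. The list's levels overlapped, at 0.12, -0.01 and 0.12 in UXS1 siRNA and -0.15, 0.01 and -0.08 in MRPL42 siRNA. UGT1A1 stood at 260, 264 and 263 CPM against 224, 243 and 226 CPM (0.18, SE 0.05, unadjusted p = 0.00729), and UGT1A8 (0.19) and UGT1A6 (0.17) were also at an unadjusted p below 0.05. UGT1A genes share their last exons, so these 3 and the list's other UGT1A genes are not independent and the split of their reads is uncertain.

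**Figure D5:**
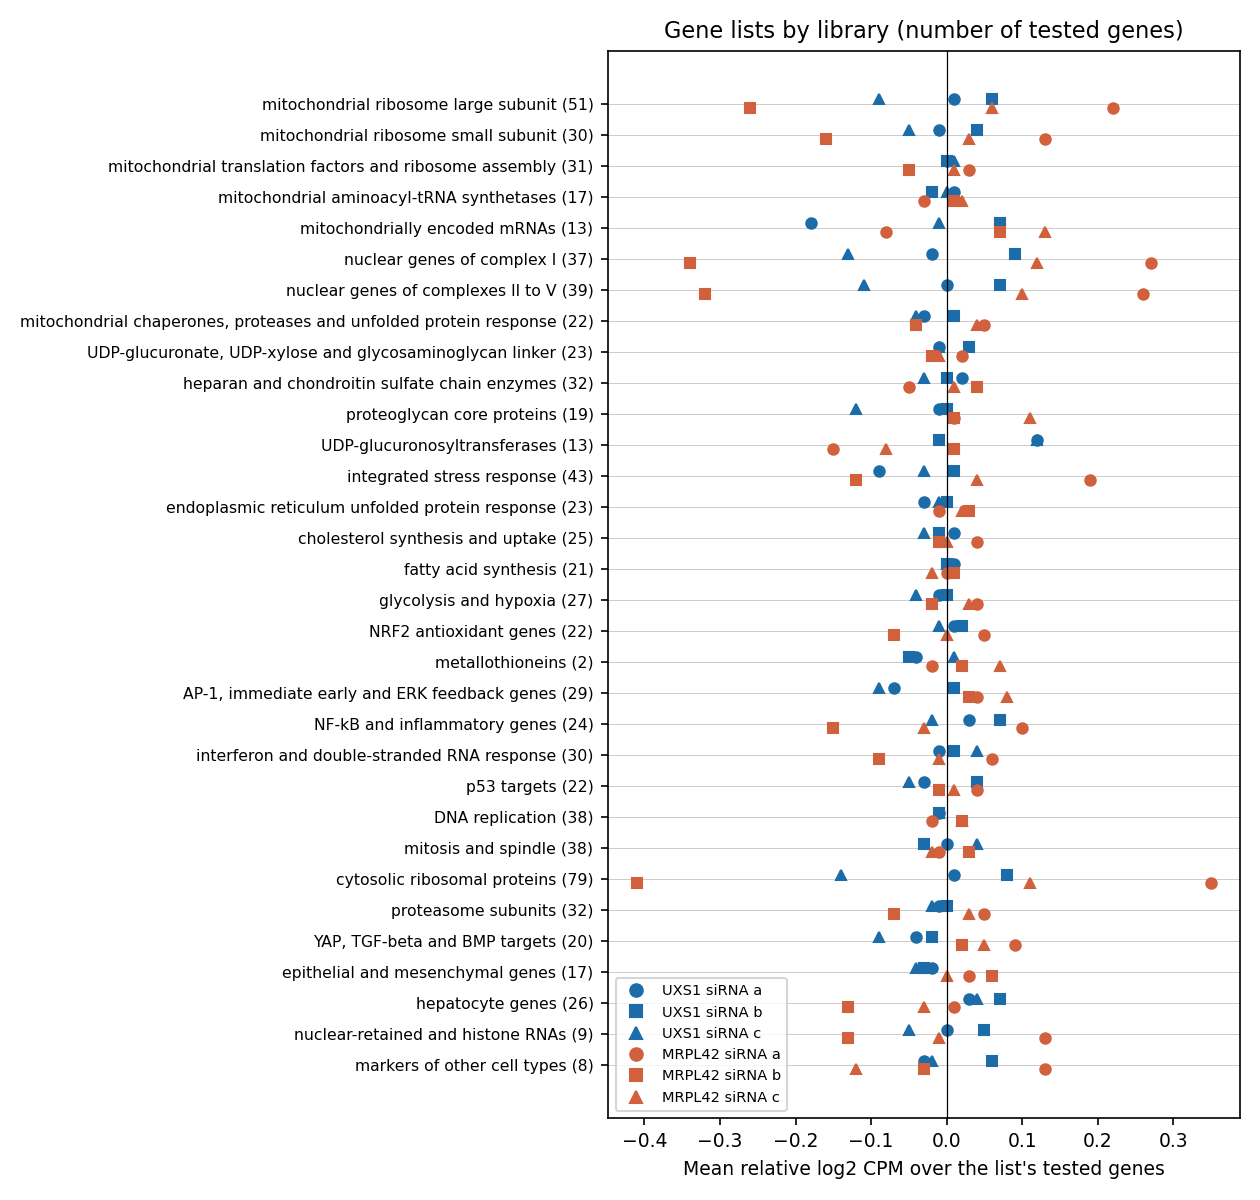
Mean relative log2 CPM over the tested genes of each list (horizontal axis; number of genes in brackets) in each of the 6 libraries. MRPL42 siRNA libraries a and b lie farthest out for cytosolic ribosomal proteins (0.35 and -0.41). The groups do not overlap for proteoglycan cores, AP-1 genes, YAP, TGF-beta and BMP targets, epithelial and mesenchymal genes and hepatocyte genes. In that order, the nearest levels of UXS1 siRNA and MRPL42 siRNA are 0.00 and 0.01, 0.01 and 0.03, -0.02 and 0.02, -0.02 and 0.00, and 0.03 and 0.01.

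Hepatocyte genes were the 1 list with all UXS1 siRNA libraries above all MRPL42 siRNA libraries. Their median was 0.09 over 26 tested genes of 40 listed. An estimate above 0 was found for 44.4% of all genes and for 17 of the 26. Libraries were apart for 8 of them, where the background was 4.94%, and for APOE, an apolipoprotein at about 1 CPM (-0.24), in the other direction. The 8 were ADH1C, FGA, FGB, FGG, the fibrinogen-like FGL1 (0.16), the urea cycle enzyme ASS1 (0.38), the protease inhibitor SERPINA1 (0.51) and transferrin (TF, 0.14). FGB, the beta chain of fibrinogen, stood at 37.4, 37.0 and 39.5 CPM against 35.8, 31.3 and 31.2 CPM (0.21, SE 0.08), so that all 3 fibrinogen genes, which lie side by side, were apart. Albumin (ALB) overlapped, with means of 13.5 and 12.5 CPM. The transcription factors HNF4A (0.01) and FOXA2 (-0.14) overlapped too. The list level was 0.03, 0.07 and 0.04 in UXS1 siRNA and 0.01, -0.13 and -0.03 in MRPL42 siRNA, and the median was 0.08 without MRPL42 siRNA library b. Fewer cells with these transcripts and less of them per cell cannot be told apart in bulk RNA.

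Lists of signalling targets had medians below that of all genes. Targets of YAP, TGF-beta and BMP had a median of -0.10 over 20 tested genes, and for 7 of them every UXS1 siRNA library lay below every MRPL42 siRNA library, where the background was 5.44%. CCN1, a matrix protein induced by YAP, stood at 14.5, 15.9 and 14.3 CPM against 16.7, 19.3 and 19.1 CPM (-0.30, SE 0.09, unadjusted p = 0.00815). AXL (-0.28), ANKRD1 (-0.30) and LATS2 (-0.25) were also at an unadjusted p below 0.05. CCN2, another YAP target, overlapped at -0.12, as did the BMP target ID1 at -0.10. AP-1, immediate early and ERK feedback genes had a median of -0.10, with 26 of 29 below 0 (55.6% over all genes). For 9 of them the libraries were apart with UXS1 siRNA lower, where the background was 5.44%. FOSL1 stood at 58.7, 61.0 and 53.5 CPM against 64.1, 71.1 and 73.9 CPM, and DUSP5, a phosphatase that ERK induces, at 67.9, 76.2 and 72.7 CPM against 78.7, 84.0 and 85.1 CPM (-0.19, unadjusted p = 0.0137). JUN (-0.12) and EGR1 (-0.15) overlapped. Epithelial and mesenchymal genes had a median of -0.05 over 17 genes, which was 0.01 without MRPL42 siRNA library b. ITGA5, an integrin subunit, was at -0.12, and the mesenchymal transcription factor SNAI1 at -0.27. The epithelial keratin KRT8 overlapped at 5290 and 5630 CPM, and fibronectin (FN1), a matrix protein that liver cells secrete, at 6640 and 6800 CPM.

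Stress and metabolic lists had medians of -0.08 to 0.02 with all 6 libraries. The integrated stress response, which ATF4 drives, had a median of -0.08, and of -0.13 without MRPL42 siRNA library b. Of its 43 genes 36 were below 0, where 55.6% of all genes were. Libraries were apart for 3 (6.98%), where the background was 10.4%. PPP1R15A, which reverses the response, was at -0.16 (unadjusted p = 0.0444), and ASNS, asparagine synthetase, at -0.02 with 111 and 112 CPM. The list level was 0.19 in MRPL42 siRNA library a and -0.12 in library b, with UXS1 siRNA at -0.09 to 0.01 between them. Cholesterol synthesis and uptake genes had a median of -0.06, with IDI1 (0.15) and MSMO1 (0.17) higher in every UXS1 siRNA library and SREBF2 (-0.10) and ACAT2 (-0.06) lower in every one. Medians were 0.02 for fatty acid synthesis, -0.03 for glycolysis and hypoxia (PFKP at -0.14), -0.02 for NRF2 targets (GCLM, of glutathione synthesis, at 0.20), -0.03 for the unfolded protein response of the endoplasmic reticulum and -0.03 for the proteasome. Without MRPL42 siRNA library b the median was 0.07 for fatty acid synthesis and 0.01 for the unfolded protein response. Of the 9 listed metallothionein and zinc genes 2 were tested: the zinc exporter SLC30A1 was at 0.17 and MT2A at -0.27.

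Growth and immune programs gave medians of -0.02 for DNA replication (CCNE2 at 0.24), -0.01 for mitosis (PLK1 at -0.11), -0.07 for p53 targets, 0.06 for NF-kB genes (BCL3 at -0.23, BIRC3 at 0.17) and 0.04 for interferon genes. Without MRPL42 siRNA library b these medians were 0.00 for DNA replication, 0.04 for mitosis, 0.04 for NF-kB genes and -0.01 for interferon genes. Among p53 targets, TP53INP1, an inducer of autophagy and cell death, was at 0.34 and TP53I3 at -0.32, both with libraries apart. Of the 22 tested p53 targets, 2 were apart with UXS1 siRNA higher (background 4.94%) and 4 with it lower (background 5.44%). IRF9, the DNA-binding part of the interferon-activated complex, stood at 2.96, 4.11 and 3.80 CPM against 2.41, 2.71 and 1.96 CPM (0.64, SE 0.19), while OAS3, a sensor of double-stranded RNA, overlapped at 244 and 260 CPM.

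Markers of other cell types had levels that overlapped between the groups. Of 27 listed, 8 passed the filter on low counts, with a median of -0.03 (-0.09 without MRPL42 siRNA library b) and levels of -0.03 to 0.06 in UXS1 siRNA and -0.12 to 0.13 in MRPL42 siRNA. The leukocyte markers PTPRC, CD14, CD3E and MS4A1 and the endothelial markers VWF and CDH5 were not among them. LYZ, described above, and the B cell gene CD79A (2.65 and 3.34 CPM) had libraries apart, in opposite directions. KDR (27.2 and 31.5 CPM), PECAM1 (35.3 and 32.4 CPM) and LUM (40.7 and 37.5 CPM), known from endothelium and fibroblasts, were expressed in both groups with overlapping libraries. For RNA quality, 9 nuclear-retained and histone RNAs were tested, with a median of 0.08 and overlapping levels, and the median was 0.00 without library b and 0.13 with the transcript length correction. The liver label held only in part: HNF4A, FOXA2, FGA and TF were measured, while APOA1, TTR and CPS1 did not pass the filter and albumin was low.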

How the data were processed

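HCCLM3 poly(A) RNA was read from 1 table of 20379 genes deposited by the authors, with estimated counts per gene (83.9% to 84.9% of the values above 0 were whole numbers) for each library. The build hg38 and the tools HISAT2, Bowtie2, fastp and edgeR are named in the submitters' processing notes. Their roles and versions, the counting program and the strand setting were not stated there, so overlapping and antisense genes are uncertain. The table's other 9 per-library columns were not used. The design assumed raw counts, and the deposited estimated counts were rounded to whole numbers. Columns were mapped by name, the UXS1 siRNA columns carrying that name with 2 letters exchanged.

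The 6 libraries were filtered (filterByExpr), scaled (TMM) and tested two-sided by the edgeR 4.0.16 quasi-likelihood test in R 4.3.3, with Benjamini-Hochberg adjustment over 12455 genes and a threshold of 0.05. Controls were left out of the fit because a control library stands apart in earlier results. limma 3.58.1 (voom) and DESeq2 1.42.0 were alternatives. The test was tested on simulated data. Every pair of libraries differed by more than counting noise (chi-square per gene 3.37 or more). Transcript lengths (99.4% of tested genes) and coordinates are from GENCODE 29 on GRCh38. Each SE was the size of the coefficient fitted without edgeR's prior count, divided by the square root of the test's F statistic. Intervals were centred on that coefficient, while the log2 fold changes given include the prior count. Relative levels use log2 CPM with a prior count of 2. Control levels are CPM from a TMM scaling of all 9 libraries.

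The comparison, the 32 lists (969 of 973 entries in the table) and the rules were chosen with earlier results of these data known. Named are both targets, the 12 genes per direction with the smallest p (a symbol, at least 5 CPM in the higher group, libraries apart), since none passed, and 2 members per list. Some of these genes are not reported here. The next gene in order was CCDC126 on the higher side and PET117 on the lower, with unadjusted edgeR p-values of 0.00456 and 0.00812. Same-lettered libraries did not deviate together (correlations of 0.12, -0.30 and -0.11 across genes), and no label ties letters to repeat numbers, so they were not treated as pairs.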

Additional observations from a re-analysis of the deposited data

How the results depend on the processing

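Each of 16 alternatives was run on both targets, the count of genes and the lists. The count of genes past the threshold was 0 in all but one, and it ran from 0 to 1 when single libraries were left out. The 1 gene, without MRPL42 siRNA library b, was ENSG00000257411, a gene without a symbol that had no count in MRPL42 siRNA libraries a and c and the highest level in b (6.03 CPM of the raw total). Genes at an unadjusted p below 0.05 numbered 200 (without MRPL42 siRNA library c) to 1876 (limma-voom with library quality weights), and 1596 without MRPL42 siRNA library b. Median-of-ratios scaling gave 414 higher and 160 lower. MRPL42 mRNA stayed between 0.32 and 0.50 (adjusted p 0.287 to 1) and UXS1 mRNA between -0.11 and -0.03. The replicate block by column letter gave 0 genes, 0.41 for MRPL42 and -0.07 for UXS1, and changed no call. No list member passed in any alternative. Of 1312 values of the 82 other named genes, 1 turned direction: the log2 fold change of H2AC18, a histone gene, was at -0.38 with all 6 libraries, and between -0.69 and 0.01 with single libraries left out (0.01 without MRPL42 siRNA library a). Of 512 list medians under the alternatives 30 moved by more than the spread between libraries, and 5 of the 32 medians changed sign without MRPL42 siRNA library b. At this depth the intervals are widest for genes under 1 CPM, and they cover a spread between libraries that may be technical.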
